A study of Homo sapiens with 12 samples.

Results

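The comparison described here set T1 (MCFT1) and CA1 (MCFCA1), 2 lines that had been grown as xenografts, against A10 (MCF10A) and NeoT (MCFNeoT), 2 lines of the same descent that had not. All 12 of the 12 RNA-seq libraries of the series entered it, 3 biological replicates for each line, and each line had equal weight. MCF10A is a spontaneously immortalized human mammary epithelial line that does not form tumours, and the series design calls all 4 lines triple-negative. It grades NeoT as benign hyperplasia, T1 as atypical hyperplasia and CA1 as invasive cancer. As background, NeoT is MCF10A carrying an activated HRAS gene, T1 was recovered from a xenograft of NeoT cells, and CA1 came from further xenograft passages of that lineage, so T1 and CA1 share their HRAS construct with NeoT and share a history with each other. Each line is a single derivative, and the culture conditions and clonal status of the lines are not given in the sources used here. The p-values below therefore measure the spread between cultures of these 4 lines, and xenograft passage itself had no replicate beyond 2 related lines. Of 14417 genes tested, 1605 were set apart, meaning that both T1 and CA1 lay on the same side of both A10 and NeoT in each of the 4 pairwise differences and that the weakest of the 4 passed the test.

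Mammary epithelium consists of an inner luminal layer, marked by simple keratins such as KRT8 and KRT18, and an outer basal layer, marked by KRT5, KRT14 and KRT15 and by anchoring proteins such as laminin 332. Epithelial cells hold together through tight junctions, adherens junctions and desmosomes, and a set of transcription regulators (the GRHL, OVOL and ELF families) keeps the junction genes on. The ZEB, SNAI and TWIST factors oppose that set and accompany the shift toward a mesenchymal state, in which vimentin, N-cadherin and fibronectin are produced. MCF10A cells carry features of basal cells and, in sparse culture, some mesenchymal ones.

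Library totals ran from 18032404 to 35730417 estimated counts. Levels are given as CPM, counts scaled to library size with TMM factors, which does not adjust for gene length, so a level is compared here between lines, and an order of genes by CPM reflects their length as well. Replicates differed least in CA1 (biological coefficient of variation 6.376%) and most in NeoT (15.93%), with T1 (8.323%) and A10 (8.631%) between. Ribosomal RNA took 7.763% of counts in T1 replicate 1 and 0.954% to 2.18% in the other 11 libraries. T1 replicate 1 and NeoT replicate 3 stood furthest from the other replicates of their lines, and without both of them 1026 genes were set apart higher and 737 lower. Because RNA was taken in bulk, a smaller share of expressing cells and less RNA per cell cannot be told apart.

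With T1 and CA1 averaged and set against the average of A10 and NeoT, 4562 genes (31.6% of those tested) were higher and 4542 (31.5%) were lower at an adjusted p under 0.05 (edgeR quasi-likelihood test, Benjamini-Hochberg adjustment). In 2342 of the higher and 2393 of the lower genes, however, the 4 pairwise differences did not all lie on one side. A further 1266 and 1498 lay on one side but failed the weakest of the 4 tests. What remained were 954 genes (6.62%) set apart higher in T1 and CA1 and 651 (4.52%) set apart lower, 17.63% of the genes called by the average. The 6 libraries of T1 and CA1 and the 6 of A10 and NeoT did not overlap at all in 951 of the 954 and 648 of the 651. The rule used the same libraries and makes this likely, so it adds no separate support. Of all tested genes, 9.00% were higher and 6.93% lower without overlap. The smallest of the 4 fold changes had a median of 1.85-fold in the genes set apart higher and 1.71-fold in those set apart lower, and all 4 reached 2-fold in 432 (3.00%) and 260 (1.80%). T1 against A10 was the smallest difference most often, in 446 of the higher and 312 of the lower genes.

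**Figure D1:**
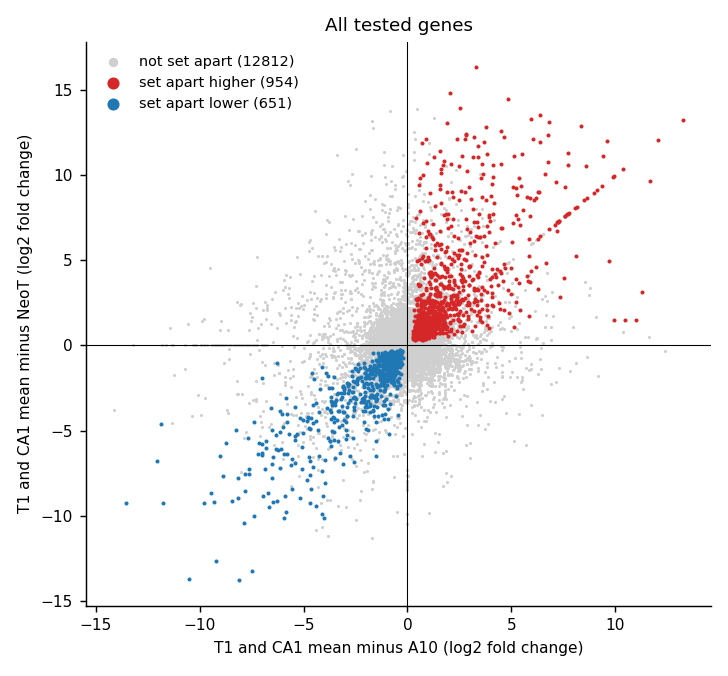
Each point is 1 of 14417 tested genes. The x axis is the mean log2 fold change of T1 and CA1 over A10 and the y axis the same over NeoT, and both axes share the T1 and CA1 libraries. The 954 genes set apart higher lie in the upper right and the 651 set apart lower in the lower left, while many grey points with large values lie near 1 axis or in the other corners.

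The genes with the widest gap were close to silent in A10 and NeoT and clearly expressed in T1 and CA1. The gap is the lower of the T1 and CA1 means over the higher of the A10 and NeoT means, with the latter taken as at least 1 CPM (for genes set apart lower, the sides are exchanged). TCN1 (chr11:59852808-59866487; positions are of RefSeq genes in GRCh38.p14), a vitamin B12 binding protein of secretions, had the widest one, 160.1-fold. Its levels were 0.251, 0.123 and 0.723 CPM in A10, 0.131, 0 and 0.058 CPM in NeoT, 154, 158 and 169 CPM in T1 and 488, 473 and 490.4 CPM in CA1. The lowest T1 library was at 154 CPM and no A10 or NeoT library reached 1 CPM. PADI1 (chr1:17205128-17246007), an enzyme that converts arginine to citrulline in proteins of the epidermis, was at 0.452, 0.9 and 0.542 CPM in A10, 0.218, 0 and 0 CPM in NeoT, 69.2, 71.7 and 62.6 CPM in T1 and 243, 257 and 235 CPM in CA1, a gap of 67.8-fold. CALB2 (chr16:71358723-71390433), the calcium-binding protein calretinin, was at 0.302, 0.123 and 0.506 CPM in A10, 0.174, 0.0431 and 0 CPM in NeoT, 49, 48.1 and 45.9 CPM in T1 and 309, 331 and 322 CPM in CA1, a gap of 47.7-fold. In these 3 genes the CA1 libraries also lay above all T1 libraries.

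GRHL2, which switches on epithelial junction genes, had 0 counts in all 6 A10 and NeoT libraries. Its levels were 60.4, 56 and 60.6 CPM in T1 and 36.5, 42.9 and 38.4 CPM in CA1. Since 3 counts over the libraries of a line correspond to 0.0326 CPM in A10 and 0.0474 CPM in NeoT, GRHL2 was at least 829-fold higher in each passaged line than in either other line. KLK6, a secreted serine protease, was at 0.372 ± 0.0509 (A10), 0 (NeoT), 40.4 ± 0.714 (T1) and 45.2 ± 2.6 (CA1) CPM (mean ± SD, n = 3 here and below). SLC6A14, an amino acid transporter, was at 0.803 ± 0.218 (A10), 0.136 ± 0.121 (NeoT), 42.2 ± 2.72 (T1) and 109.9 ± 3.17 (CA1) CPM. RASAL1, which stimulates GTP hydrolysis by RAS, was at 0.687 ± 0.156 (A10), 0.0871 ± 0.115 (NeoT), 39.7 ± 3.62 (T1) and 41 ± 0.696 (CA1) CPM. TMEM30B, a subunit of lipid flippases, KRTCAP3, a keratinocyte-associated membrane protein, and GABRP, a GABA receptor subunit, followed, and the nearest libraries of the sides in these 3 were 1.23 and 28.9 CPM (both for GABRP). ANO1, a calcium-activated chloride channel, and CEACAM1, a cell adhesion protein, had clear levels in A10 as well. ANO1 was at 6.42 ± 0.63 (A10), 1.4 ± 0.527 (NeoT), 199.7 ± 2.71 (T1) and 319 ± 3.76 (CA1) CPM and CEACAM1 at 7.71 ± 1.37 (A10), 0.527 ± 0.38 (NeoT), 238 ± 8.79 (T1) and 367 ± 14.9 (CA1) CPM. In all, 21 genes were under 1 CPM in A10 and NeoT and at 10 CPM or more in T1 and CA1.

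In the opposite direction, the widest gap belonged to DCN (chr12:91140484-91182817), the matrix proteoglycan decorin. It was at 68.5, 66.2 and 72.6 CPM in A10, 626, 602 and 669 CPM in NeoT, 0.747, 0.348 and 0.245 CPM in T1 and 0 CPM in all 3 libraries of CA1, a gap of 69.1-fold. No read was assigned to it in CA1, and the highest T1 library was under 1 CPM. FN1 (chr2:215360865-215436068), fibronectin, was at 1104, 1277 and 1091 CPM in A10, 14249, 15914 and 17772 CPM in NeoT, 61.3, 68.2 and 65.7 CPM in T1 and 37.5, 31 and 33.4 CPM in CA1. Its NeoT libraries were the highest, but the A10 libraries too lay far above all T1 and CA1 libraries, with a smallest fold of 17.8 (T1 against A10, adjusted p = 1.18e-15) and an average log2 fold change of -6.52 (SE 0.08). Here and below, an adjusted p beside a smallest fold is that of the rule for genes set apart, not of the pairwise contrast. WNT5A (chr3:55465715-55505263), a WNT ligand that acts mainly without beta-catenin, was at 20.4, 22.5 and 19 CPM in A10, 28.6, 32.6 and 39.5 CPM in NeoT, 0.961, 0.443 and 0.818 CPM in T1 and 0 CPM in all 3 libraries of CA1. The complement proteases C1R and C1S were low in both passaged lines. C1S was at 19.5, 21.1 and 19.5 CPM in A10, 12, 15.8 and 13.1 CPM in NeoT, 0.249, 0.601 and 1.27 CPM in T1 and 0.788, 0.95 and 0.545 CPM in CA1. C1R was at 26.2 ± 2.17 (A10), 23.7 ± 3.18 (NeoT), 1.19 ± 0.0803 (T1) and 0.35 ± 0.108 (CA1) CPM, and a second row of the same gene, which can share reads with the first, ranked beside it. SLC2A3, a glucose transporter with a near-identical copy (SLC2A14) that makes its count uncertain, was at 12.8 ± 0.256 (A10), 30.7 ± 2.2 (NeoT), 0.404 ± 0.323 (T1) and 0.0432 ± 0.0748 (CA1) CPM. FHL1, a LIM-domain protein, GNG11, a G protein subunit, FMNL1, a formin, SLC7A2, a cationic amino acid transporter, and ITGA10, a collagen-binding integrin, completed the 12, each at 10 CPM or more in all A10 and NeoT libraries and at most 1.67 CPM (FMNL1) in a T1 or CA1 library. The reverse pattern to that of GRHL2, under 1 CPM in T1 and CA1 and at least 10 CPM in the other lines, was found in 11 genes.

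**Figure D2:**
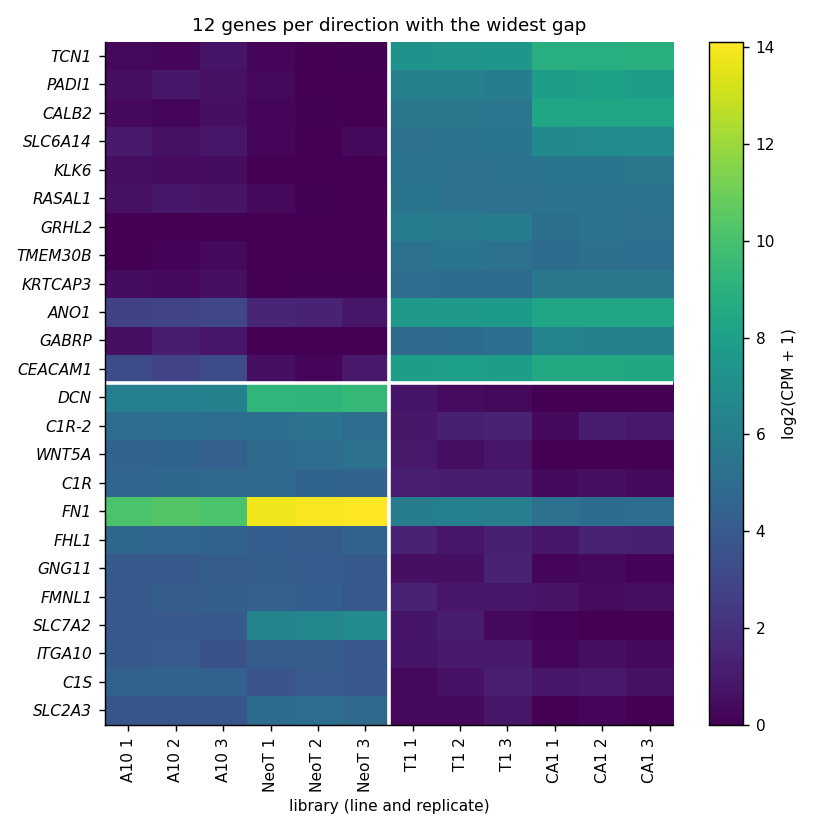
Rows are the 12 genes per direction with the widest gap and columns the 12 libraries, coloured by log2(CPM + 1). C1R and C1R-2 in the lower block are separate entries of the same gene. Within each row of the upper block the 6 libraries of T1 and CA1 are brighter than the others, and in the lower block the order is reversed. All rows share 1 colour scale, so brightness also differs between genes.

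Genes were also grouped into lists by function, 32 in all with 643 genes, chosen with earlier results of these data known. Counts below are of members set apart, to be read against 6.62% higher and 4.52% lower among all tested genes, and medians are of the average contrast on the log2 scale, which over all tested genes was -0.01. Among regulators of epithelial identity, 9 of 19 tested members were set apart higher and 0 lower (47.4%, median 1.87). OVOL1, a zinc-finger repressor of mesenchymal genes, was at 1.72 ± 0.618 (A10), 0 (NeoT), 14.9 ± 1.64 (T1) and 7.72 ± 0.505 (CA1) CPM. ESRP1, a splicing factor of epithelial transcripts, was at 58.4, 53.7 and 50.9 CPM in A10, 0.393, 0.173 and 0 CPM in NeoT, 229, 231 and 235 CPM in T1 and 397, 401 and 408 CPM in CA1. For ESRP1 the gap was set by A10, since NeoT reached at most 0.393 CPM. ELF3, an ETS factor of epithelia, was at 53.9 ± 4.8 (A10), 1.76 ± 0.382 (NeoT), 245 ± 7.6 (T1) and 211 ± 16.5 (CA1) CPM. GRHL1, OVOL2, FOXA1, GATA3 and PRDM1 were the other members set apart, and FOXA1 and GATA3 are regulators of luminal cells. Leaving out T1 replicate 1 and NeoT replicate 3 gave the same count of 9. In T1 14 of the 19 were higher than in A10 (26.0% of all tested genes) and 4 lower (25.9%). In CA1 10 were higher than in A10 (34.4%) and 6 lower (36.5%). NeoT was below A10 in 15 of the 19 (36.7% of all tested genes) and above in 2 (33.7%), so the median drew on low NeoT levels as well. For this list and for the junction, desmosome, luminal and kallikrein lists below, the count lower was 0 by edgeR, by DESeq2, by limma-voom and at an unadjusted p under 0.05.

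Junction genes were the list with the largest share set apart higher: 15 of 23 (65.2%, median 3.83), with 0 lower. CLDN4, a tight junction claudin, was at 39.7, 48.7 and 43.7 CPM in A10, 5.89, 4.27 and 2.61 CPM in NeoT, 648, 609 and 616 CPM in T1 and 726, 814 and 788 CPM in CA1, a smallest fold of 14.2 (T1 against A10, adjusted p = 4.36e-11). RAB25, a small GTPase of epithelial recycling vesicles, was at 3.95, 3.93 and 4.08 CPM in A10, 0 CPM in all 3 libraries of NeoT, 90.2, 98.3 and 96.2 CPM in T1 and 139, 132 and 128 CPM in CA1. EPCAM, the epithelial cell adhesion molecule, was at 42.6, 40.7 and 41.7 CPM in A10, 6.41, 7.29 and 8.01 CPM in NeoT, 239, 233 and 244 CPM in T1 and 382, 396 and 408 CPM in CA1. CGN, which links tight junctions to the cytoskeleton, was at 2.81, 3.35 and 3.25 CPM in A10, 0 CPM in all 3 libraries of NeoT, 31.6, 36.9 and 31.1 CPM in T1 and 13.4, 16.2 and 12.1 CPM in CA1. All 23 tested members were lower in NeoT than in A10 (36.7% of all tested genes were), and all 23 were higher than in NeoT both in T1 (35.0%) and in CA1 (33.8%), so that A10 decided which of them were set apart. CLDN1, CLDN7, TJP3, CRB3, ST14, SPINT1, SPINT2, PRSS8, AP1M2 and CDS1 were also among the 15. CDH1, E-cadherin, was not set apart: it was at 313 ± 16.3 (A10), 0.691 ± 0.452 (NeoT), 645 ± 23 (T1) and 362 ± 12.3 (CA1) CPM, and CA1 against A10 gave a log2 fold change of 0.21 (adjusted p = 0.057). CDH1, like KRT5, KRT14, VIM and POSTN below, was named after its values were seen. Among desmosome genes 1 of 10 was set apart higher (DSC2, a desmosomal cadherin) and 0 lower, with a median of 0.92. That count was 2 without NeoT replicate 3. NeoT was below A10 in 9 of the 10 desmosome genes (36.7% of all tested genes), so their median drew on low NeoT levels. Against A10, 5 were higher and 1 lower in T1 (26.0% and 25.9%), and 2 were higher and 4 lower in CA1 (34.4% and 36.5%). DSC2 was at 44.8 ± 4.06 (A10), 5.01 ± 0.371 (NeoT), 177 ± 2.14 (T1) and 106 ± 3.13 (CA1) CPM.

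Promoters of 3 genes set apart higher are shown because they hold letters of an element named below. They run from 250 bases before to 50 after the RefSeq start in GRCh38.p14, on the plus strand. The capitals mark letters of TGANTCA, the element of AP-1 factors, in CLDN4 (chr7:73830746-73831045) and SLC6A14 (chrX:116436356-116436655), and of AACCNGTT, an element of grainyhead-like factors, in CGN (chr1:151511137-151511436), where the printed letters are the reverse complement of the motif. These 3 were picked after the matches and the levels were seen.
CLDN4: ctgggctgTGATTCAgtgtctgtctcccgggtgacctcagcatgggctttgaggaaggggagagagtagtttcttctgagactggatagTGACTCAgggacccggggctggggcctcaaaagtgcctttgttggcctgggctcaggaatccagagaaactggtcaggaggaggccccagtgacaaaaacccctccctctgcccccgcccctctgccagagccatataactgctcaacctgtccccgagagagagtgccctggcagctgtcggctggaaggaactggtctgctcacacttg
SLC6A14: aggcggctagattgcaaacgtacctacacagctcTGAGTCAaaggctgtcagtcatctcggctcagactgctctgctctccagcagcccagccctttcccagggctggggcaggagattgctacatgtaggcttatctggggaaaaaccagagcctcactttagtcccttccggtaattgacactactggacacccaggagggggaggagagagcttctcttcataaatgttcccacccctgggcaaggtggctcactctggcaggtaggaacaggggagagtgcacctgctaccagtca
CGN: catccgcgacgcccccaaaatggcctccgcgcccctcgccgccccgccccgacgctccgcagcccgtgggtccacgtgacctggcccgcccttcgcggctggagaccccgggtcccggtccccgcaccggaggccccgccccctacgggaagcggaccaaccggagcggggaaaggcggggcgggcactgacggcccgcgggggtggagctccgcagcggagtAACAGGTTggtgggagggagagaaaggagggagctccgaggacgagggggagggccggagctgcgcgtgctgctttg
Each motif was searched on both strands and counted separately, so that matches of different motifs may overlap. TGANTCA was present in 7.919% of the promoters of genes set apart higher and 5.296% of those set apart lower, beside 5.589% of promoters of all tested genes and 7.709% of all RefSeq promoters. AACCNGTT was present in 1.432% and 1.355%, beside 1.51% and 1.726%, so genes set apart did not hold it more often. The letters of an interferon response element (GAAA, any 2 bases, GAAA) were present in 2.359% and 3.079%, beside 3.02% and 3.574%. Promoters were found for 732 of the 954 genes and 509 of the 651, some with several starts. A match describes letters and says nothing about binding.

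Of 16 tested luminal markers, 9 were set apart higher and 0 lower (56.3%, median 2.34). KRT8 was at 132, 154 and 156 CPM in A10, 509, 488 and 422 CPM in NeoT, 1687, 1677 and 1607 CPM in T1 and 3459.7, 3803 and 3833 CPM in CA1. T1 libraries were at least 3 times the highest NeoT library, and CA1 was higher again. KRT18, its partner in the luminal keratin filament, was at 349.9 ± 16.9 (A10), 329 ± 14.3 (NeoT), 981 ± 22 (T1) and 3188 ± 151 (CA1) CPM. CEACAM6, a glycoprotein of the cell surface, was at 0.698 ± 0.245 (A10), 0 (NeoT), 20.8 ± 0.852 (T1) and 167 ± 2.34 (CA1) CPM, and AGR2, a disulfide isomerase of secretory cells, at 0.326 ± 0.232 (A10), 0 (NeoT), 26.3 ± 2.3 (T1) and 17.8 ± 1.45 (CA1) CPM. KRT7, KRT19, ALDH1A3, CD9 and MUC20 were the others. MUC1, CD24, KRT23, PROM1, SLPI, LTF and ANXA9 were tested and not set apart. In T1 12 of the 16 were higher than in A10 (26.0% of all tested genes) and 1 lower (25.9%). In CA1 9 were higher than in A10 (34.4%) and 6 lower (36.5%). NeoT was below A10 in 12 of the 16 (36.7% of all tested genes) and above in 2 (33.7%), so the median drew on low NeoT levels as well.

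Basal markers, too, were more often higher than lower. Of 20 tested, 8 were set apart higher and 1, MME, lower (40% and 5%, median 2.19). Against A10, 13 of these 20 were higher and 5 lower in T1 (26.0% and 25.9% of all tested genes). For CA1 against A10 the counts were 12 higher and 7 lower (34.4% and 36.5%). NeoT was below A10 in 17 of them (36.7%), so the median drew on low NeoT levels as well. KRT15, a keratin of basal cells, was at 749.5, 832 and 832 CPM in A10, 1.22, 1.04 and 0.987 CPM in NeoT, 5284, 5165 and 4882 CPM in T1 and 6015, 6426 and 6348 CPM in CA1, and the gap of 6.35-fold was set by A10 because NeoT was near 1 CPM. KRT6B, a keratin of activated keratinocytes, was at 18.6 ± 2.09 (A10), 0.256 ± 0.156 (NeoT), 249.8 ± 1.49 (T1) and 706 ± 22.7 (CA1) CPM. KRT16, its usual partner, was at 49.6 ± 1.17 (A10), 17.5 ± 1.13 (NeoT), 363 ± 21.9 (T1) and 146 ± 4.16 (CA1) CPM. LAMA3 and LAMB3, chains of laminin 332, ITGA6, a receptor for it, TRIM29 and SLC6A14 were also set apart higher. The defining pair KRT5 and KRT14 was not: KRT5 was at 3347 ± 152 (A10), 40.2 ± 3.49 (NeoT), 1963 ± 96.7 (T1) and 271 ± 17 (CA1) CPM and KRT14 at 451 ± 21.6 (A10), 2.57 ± 0.777 (NeoT), 25.3 ± 1.29 (T1) and 3.33 ± 0.212 (CA1) CPM, so both passaged lines lay between A10 and NeoT. Without T1 replicate 1 and NeoT replicate 3 the basal count was 7. Kallikreins and cornified envelope genes had 3 of 20 set apart higher and 0 lower (15%, median 2.04). In T1 8 of the 20 were higher than in A10 (26.0% of all tested genes) and 7 lower (25.9%). In CA1 4 were higher than in A10 (34.4%) and 15 lower (36.5%). In NeoT 18 were lower than in A10 (36.7%), so the median drew on low NeoT levels. Of the 3 set apart, KLK5, a protease of the outer epidermis, was at 40.9 ± 0.157 (A10), 0 (NeoT), 746 ± 17.9 (T1) and 216 ± 3.08 (CA1) CPM. SPRR3 was called at levels of at most 1.97 CPM, and its call was lost under 4 of the alternatives, among them leaving out A10 replicate 2, A10 replicate 3 or T1 replicate 2.

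**Figure D3:**
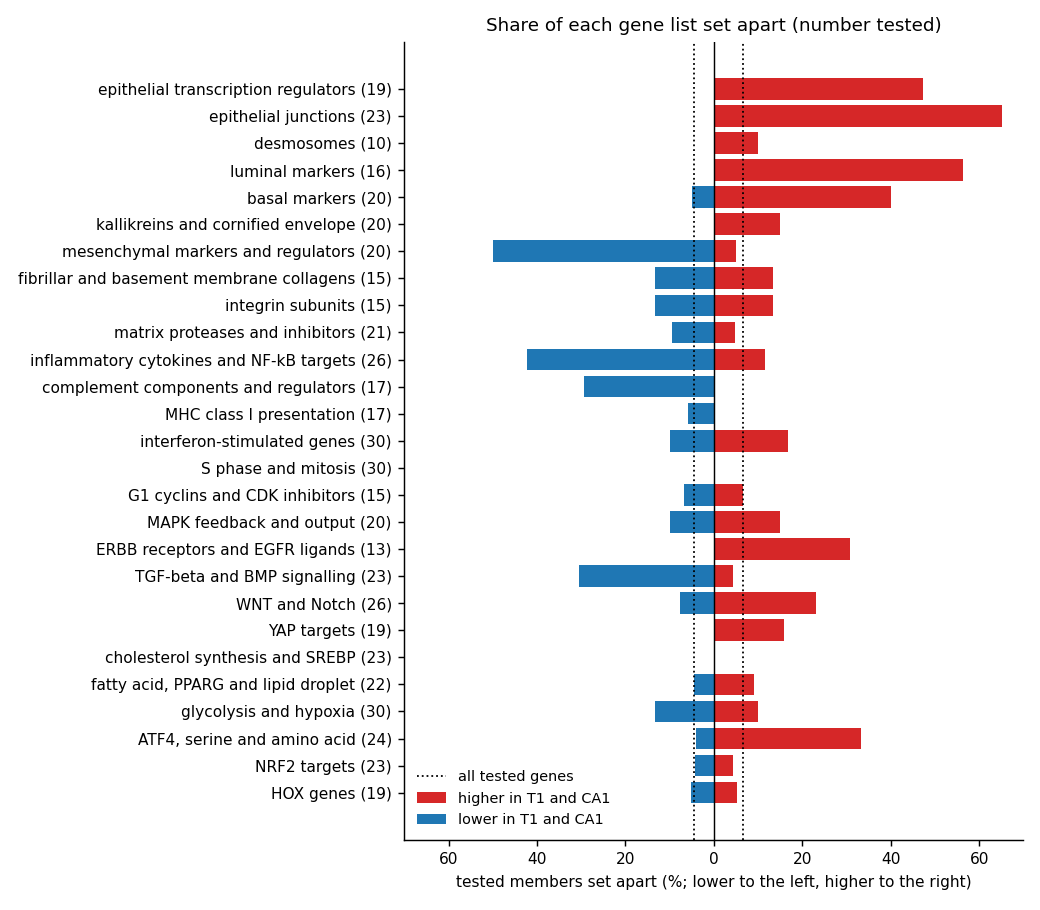
Bars give the percentage of tested members set apart higher (right) or lower (left) in T1 and CA1 for each list with at least 10 tested genes (number in brackets), and dotted lines give 6.62% and 4.52% for all tested genes. Junction genes (65.2%), luminal markers (56.3%) and epithelial regulators (47.4%) reach furthest right. Mesenchymal genes (50%) and inflammatory genes (42.3%) reach furthest left.

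Mesenchymal markers and regulators showed the opposite picture, with 10 of 20 set apart lower and 1 higher (50% and 5%, median -2.28). Among the regulators, ZEB1, a repressor of E-cadherin and of epithelial splicing, was at 4.5, 4.13 and 3.58 CPM in A10, 30.6, 35.6 and 37.3 CPM in NeoT, 0.712, 0.443 and 0.204 CPM in T1 and 0.507, 0.173 and 0.503 CPM in CA1. ZEB2, its paralogue, was at 5.5, 5.4 and 5.17 CPM in A10, 30.2, 31.5 and 36.3 CPM in NeoT, 0.605, 1.04 and 1.47 CPM in T1 and 0.113, 0.0432 and 0 CPM in CA1. NeoT had the highest level of both genes, and every T1 and CA1 library was below every A10 library. TWIST2, a helix-loop-helix factor, was at 28.6 ± 3.83 (A10), 42.3 ± 3.08 (NeoT), 11.6 ± 1.57 (T1) and 0.708 ± 0.0601 (CA1) CPM. SNAI2 and TWIST1 were also set apart lower. Among the structural genes, FN1, VIM (vimentin), CDH2 (N-cadherin), TAGLN and TGFB1I1 were set apart lower, and TNC, a matrix glycoprotein, was the single one set apart higher. VIM was at 762 ± 21.9 (A10), 2235 ± 23.3 (NeoT), 94.5 ± 2.57 (T1) and 365 ± 14.6 (CA1) CPM, with CA1 between T1 and A10. The lower count was 9 without T1 replicate 1 and NeoT replicate 3.

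Matrix and adhesion lists were divided. Of 15 collagens 2 were higher and 2 lower (13.3% each, median -0.63). COL6A1 was at 23 ± 1.81 (A10), 172 ± 17.9 (NeoT), 4.27 ± 0.717 (T1) and 7.66 ± 1.79 (CA1) CPM and COL7A1, of the anchoring fibrils, at 36 ± 6.35 (A10), 56.5 ± 7.44 (NeoT), 17 ± 0.543 (T1) and 23.4 ± 0.852 (CA1) CPM, both set apart lower. COL18A1, the source of endostatin, was at 18.5 ± 3.34 (A10), 3.9 ± 0.897 (NeoT), 39.6 ± 3.42 (T1) and 102 ± 9.67 (CA1) CPM and COL16A1 at 30.9 ± 2.49 (A10), 3.42 ± 0.313 (NeoT), 50.7 ± 4.97 (T1) and 90.4 ± 3.76 (CA1) CPM, both set apart higher. Of 15 integrin subunits 2 were higher and 2 lower (13.3% each, median 0.32). ITGB6, the beta subunit of an epithelial integrin that activates TGF-beta, was at 238 ± 13.5 (A10), 0.41 ± 0.243 (NeoT), 404 ± 13.9 (T1) and 333 ± 6.65 (CA1) CPM, and ITGB2 at 38.1 ± 0.798 (A10), 0.145 ± 0.182 (NeoT), 101 ± 1.77 (T1) and 64.7 ± 1.25 (CA1) CPM. ITGA5, the fibronectin receptor subunit, was at 248 ± 14.1 (A10), 1903 ± 47.1 (NeoT), 155 ± 0.194 (T1) and 89.5 ± 1.76 (CA1) CPM, below A10 by 1.6-fold in T1, and ITGA10 was lower as described. Of 21 matrix proteases and inhibitors 1 was higher and 2 lower (4.76% and 9.52%, median -0.26), a share of higher genes no larger than the background. The higher count was 2 without NeoT replicate 3. PLAUR, the urokinase receptor, was at 50.5 ± 6.02 (A10), 62.9 ± 1.9 (NeoT), 142 ± 2.68 (T1) and 109 ± 7.05 (CA1) CPM and TIMP1, a metalloproteinase inhibitor, at 294 ± 16.7 (A10), 1812 ± 65.1 (NeoT), 198 ± 4.43 (T1) and 139 ± 1.34 (CA1) CPM. ADAMTS5, an aggrecanase, had 0 counts in T1 and CA1 and stayed under 1 CPM in A10.

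Inflammatory cytokines and NF-kB targets were more often lower than higher. Of 26 tested, 11 were set apart lower and 3 higher (42.3% and 11.5%, median -1.99). CSF3, the granulocyte growth factor G-CSF, was at 191, 224 and 217 CPM in A10, 12, 11.4 and 9.46 CPM in NeoT, 0, 0.158 and 0 CPM in T1 and 0 CPM in all 3 libraries of CA1. It was highest in A10, and 5 of 6 T1 and CA1 libraries had no count. CXCL8 (IL8 in the table), a neutrophil chemoattractant, was at 123, 103 and 110.2 CPM in A10, 151, 152 and 168 CPM in NeoT, 13.4, 16 and 14.1 CPM in T1 and 25.1, 23.8 and 24.9 CPM in CA1. SOD2, the mitochondrial superoxide dismutase and an NF-kB target, was at 307, 302 and 291 CPM in A10, 675, 702 and 744 CPM in NeoT, 45.9, 47.1 and 47.1 CPM in T1 and 30.9, 35 and 33.1 CPM in CA1, and its smallest fold was 6.42 (T1 against A10, adjusted p = 1.18e-15). CXCL2 was at 14.8 ± 1.81 (A10), 9.47 ± 2.32 (NeoT), 2.37 ± 0.0713 (T1) and 1.26 ± 0.305 (CA1) CPM. CXCL1, CXCL3, CCL20, IL32 and BIRC3, and the feedback inhibitors NFKBIA and TNFAIP3, were the other members set apart lower. LIF, TNFAIP2 and LCN2 were set apart higher, so the list did not move as 1 block. Leaving out T1 replicate 1 and NeoT replicate 3 gave the same 11 and 3.

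Complement components and regulators had 5 of 17 set apart lower and 0 higher (29.4%, median -1.32), among them C1R, C1S, CFB and CLU. CFB, the protease of the alternative pathway, was at 48.7 ± 1.08 (A10), 46.9 ± 4.87 (NeoT), 4.48 ± 0.119 (T1) and 6.41 ± 0.477 (CA1) CPM. CLU, an inhibitor of the terminal complex, was at 16.8 ± 0.336 (A10), 14.9 ± 1.69 (NeoT), 2.52 ± 0.898 (T1) and 0.893 ± 0.361 (CA1) CPM. For the count of 0 higher, 1 gene had an unadjusted p under 0.05 and DESeq2 and limma-voom gave 0, while leaving out NeoT replicate 3 gave 1. Of 17 genes of MHC class I presentation 1, the trimming peptidase ERAP1, was lower and 0 higher (5.88%, median -0.23; 0 higher also at an unadjusted p under 0.05 and by DESeq2 and limma-voom). ERAP1 was at 30.4 ± 1.29 (A10), 29.5 ± 5.34 (NeoT), 15 ± 0.663 (T1) and 21.3 ± 2.51 (CA1) CPM, and its call was lost without CA1 replicate 1 or without NeoT replicate 3. Interferon-stimulated genes had 5 of 30 higher and 3 lower (16.7% and 10%, median 1.29). IRF7, a transcription factor of the response, was at 3.08 ± 0.462 (A10), 2.35 ± 0.728 (NeoT), 8.22 ± 0.275 (T1) and 12.6 ± 0.62 (CA1) CPM, OASL at 0.95 ± 0.347 (A10), 0.734 ± 0.372 (NeoT), 5.54 ± 0.157 (T1) and 4.32 ± 0.337 (CA1) CPM and IFI35 at 7.02 ± 0.377 (A10), 1.98 ± 0.406 (NeoT), 14.5 ± 1.56 (T1) and 23.4 ± 0.671 (CA1) CPM. OAS1 and ISG20 were also higher. IFITM2, which hinders virus entry, was at 289 ± 20.9 (A10), 217 ± 23.3 (NeoT), 82.8 ± 5.11 (T1) and 1.31 ± 0.858 (CA1) CPM and was set apart lower with IFITM3 and IRF1. The average of the 30 was not a property of both passaged lines: 21 were higher in T1 than in A10 (26.0% among all tested genes), and 17 were lower in CA1 than in A10 (36.5%).

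**Figure D4:**
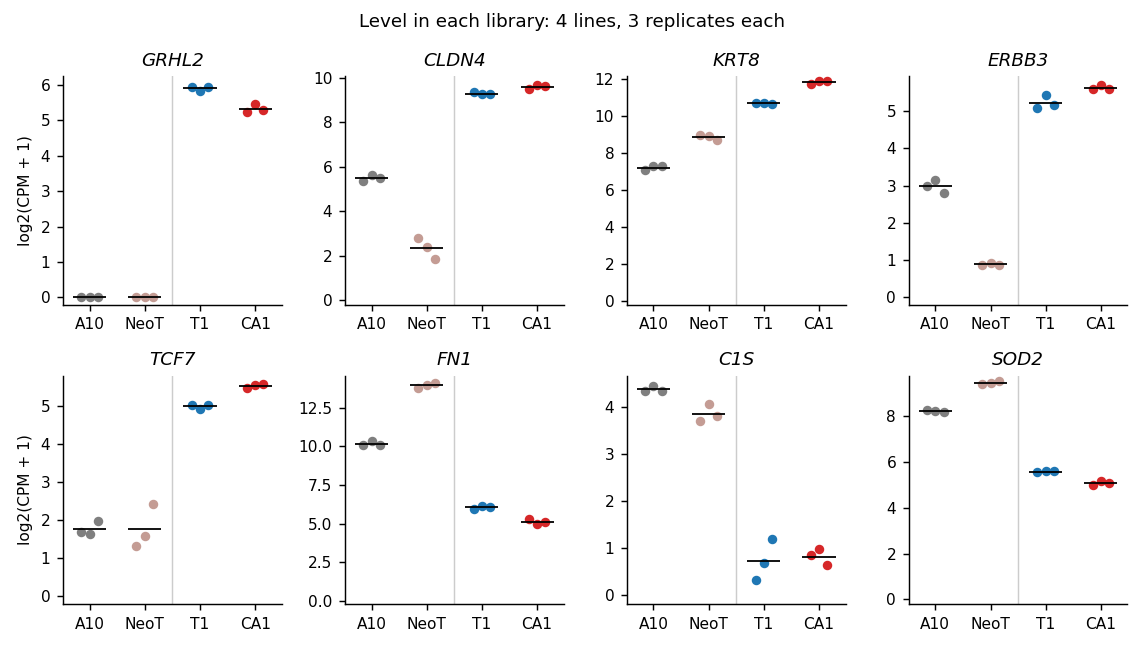
Each point is 1 library of A10, NeoT, T1 or CA1 (3 each), the y axis is log2(CPM + 1) on a scale of its own for each gene, and the short line is the mean of the 3. GRHL2, CLDN4, KRT8, ERBB3 and TCF7 are higher in all 6 T1 and CA1 libraries, and FN1, C1S and SOD2 are lower in all 6. For most of the 8 genes A10 and NeoT lie far from each other as well.

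HRAS gave no grouping of the lines by xenograft passage. It was at 61.7, 62 and 69.8 CPM in A10, 261, 239.5 and 218 CPM in NeoT, 170.4, 157 and 147 CPM in T1 and 289, 305 and 312 CPM in CA1, with T1 below NeoT and CA1 above it, and it was not set apart. These reads do not separate the transfected gene from the resident one. As a check on the label triple-negative, PGR (progesterone receptor) had 0 counts in all 12 libraries, which at 3 counts over a line allows up to 0.0326 CPM in A10 and 0.0474 CPM in NeoT, and ESR1 (oestrogen receptor) stayed at or below 1.47 CPM in every library and was not set apart. ERBB2, the HER2 receptor, was set apart higher, at 73.9, 77.9 and 81.8 CPM in A10, 62.8, 58.4 and 54.4 CPM in NeoT, 203, 208 and 188 CPM in T1 and 194, 214 and 197 CPM in CA1. The smallest fold was 2.57 (T1 against A10, adjusted p = 4.44e-11), and no T1 or CA1 library overlapped with an A10 or NeoT library. Of 13 ERBB receptors and EGFR ligands 4 were higher and 0 lower (30.8%, median 0.87; 0 lower at an unadjusted p under 0.05 and by DESeq2 and limma-voom). ERBB3, the partner receptor of ERBB2, was at 6.99, 7.93 and 6 CPM in A10, 0.829, 0.906 and 0.813 CPM in NeoT, 33.2, 41.8 and 34.8 CPM in T1 and 47.7, 50.6 and 47.7 CPM in CA1. The ligand HBEGF was at 67.4 ± 1.57 (A10), 3.69 ± 0.468 (NeoT), 221 ± 1.36 (T1) and 451 ± 11.4 (CA1) CPM and the ligand TGFA at 71.6 ± 2.8 (A10), 50.6 ± 6.39 (NeoT), 112 ± 0.887 (T1) and 229.7 ± 9.51 (CA1) CPM.

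Of 20 genes of MAPK feedback and output 3 were higher and 2 lower (15% and 10%, median 0.61). SPRED2, a feedback inhibitor of RAS signalling, was at 48.2 ± 2.16 (A10), 42.1 ± 0.692 (NeoT), 66 ± 5.6 (T1) and 86.4 ± 2.07 (CA1) CPM, and DUSP1, a MAPK phosphatase, was lower at 94.7 ± 2.63 (A10), 725 ± 2.99 (NeoT), 57.8 ± 3.4 (T1) and 18.4 ± 0.56 (CA1) CPM. EPHA2, a receptor tyrosine kinase, was at 210.4 ± 15.8 (A10), 372 ± 22.6 (NeoT), 442 ± 10.7 (T1) and 1396 ± 54.4 (CA1) CPM. EPHA2 passed by a 1.19-fold difference of T1 and NeoT, and its call was lost with upper-quartile scaling, without T1 replicate 1 or without T1 replicate 2. SPRED3, called lower at levels of at most 5.7 CPM, lost its call when any one of 9 libraries was left out, which took the lower count to 1. In TGF-beta and BMP signalling 7 of 23 were lower and 1 higher (30.4% and 4.35%, median -0.36). The 7 included the ligand TGFB1, the receptors TGFBR1 and TGFBR3, the latent complex protein LTBP1, the mediator SMAD9 and the targets TGFBI and ID3. TGFBR3 (betaglycan) was at 17.9 ± 2.29 (A10), 27.4 ± 0.341 (NeoT), 5.01 ± 0.185 (T1) and 0.364 ± 0.412 (CA1) CPM, ID3 at 42.2 ± 5.05 (A10), 109 ± 15.7 (NeoT), 14.2 ± 0.629 (T1) and 13.9 ± 2.57 (CA1) CPM and SMAD9 at 3.77 ± 0.447 (A10), 12.8 ± 2.49 (NeoT), 0.843 ± 0.427 (T1) and 1.37 ± 0.238 (CA1) CPM. INHBA, the activin A subunit, was the higher one, at 4.79 ± 0.846 (A10), 13.1 ± 2.27 (NeoT), 27.4 ± 1.3 (T1) and 123 ± 5.21 (CA1) CPM, and the higher count was 2 without NeoT replicate 2 or without NeoT replicate 3.

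In the WNT and Notch list 6 of 26 were higher and 2 lower (23.1% and 7.69%, median 0.52). WNT7B, a ligand, was at 2.64, 2.86 and 3.11 CPM in A10, 1.18, 1.68 and 1.22 CPM in NeoT, 42.5, 40.3 and 37.4 CPM in T1 and 219, 223 and 218 CPM in CA1, and all CA1 libraries lay above all T1 libraries. TCF7, a transcription factor of the WNT pathway, was at 2.24, 2.09 and 2.93 CPM in A10, 1.48, 1.98 and 4.41 CPM in NeoT, 31.7, 29.5 and 31.4 CPM in T1 and 43.1, 46.2 and 46.8 CPM in CA1. WNT9A, FZD8, the antagonist DKK1 and the Notch ligand JAG1 were also higher, and HEY1, a Notch target, was lower at 3.18 ± 0.335 (A10), 8.56 ± 1.7 (NeoT), 1.21 ± 0.691 (T1) and 0.494 ± 0.195 (CA1) CPM beside WNT5A. Of 19 YAP targets and regulators 3 were higher and 0 lower (15.8%, median 0.19; 0 lower also at an unadjusted p under 0.05 and by DESeq2 and limma-voom). F3, tissue factor, was at 266 ± 0.0226 (A10), 35.1 ± 0.953 (NeoT), 577 ± 18.5 (T1) and 698 ± 18.2 (CA1) CPM and WWTR1, the coactivator TAZ, at 78.4 ± 3.23 (A10), 90.2 ± 8.5 (NeoT), 113 ± 3.87 (T1) and 409 ± 2.84 (CA1) CPM. WWC1 was at 57.1 ± 4.78 (A10), 15 ± 1.2 (NeoT), 88.7 ± 1.25 (T1) and 70.6 ± 1.94 (CA1) CPM, and its call was lost without A10 replicate 1, without A10 replicate 3 or without CA1 replicate 1.

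Among metabolic lists, targets of ATF4 and genes of serine and amino acid supply had 8 of 24 higher and 1 lower (33.3% and 4.17%, median 0.62). ATF3, a transcription factor of the stress response, was at 3.54, 3.19 and 2.89 CPM in A10, 6.85, 6.17 and 5.69 CPM in NeoT, 17.2, 16 and 19 CPM in T1 and 56.9, 62.5 and 64.2 CPM in CA1. ASNS, asparagine synthetase, was at 112, 106 and 104 CPM in A10, 98.5, 86.4 and 126 CPM in NeoT, 253, 259.5 and 260.2 CPM in T1 and 259, 262 and 261 CPM in CA1, and the T1 and CA1 libraries lay within 10 CPM of one another. VLDLR, a lipoprotein receptor, was at 4.86 ± 1.36 (A10), 3.43 ± 0.593 (NeoT), 22.9 ± 0.419 (T1) and 15 ± 0.277 (CA1) CPM. TRIB3, the serine synthesis enzymes PHGDH and PSAT1, and the transporters SLC7A11 and SLC1A5 were also higher, and CBS, which makes cystathionine, was lower at 14.6 ± 2.26 (A10), 9.94 ± 3.4 (NeoT), 1.31 ± 0.258 (T1) and 2.27 ± 0.983 (CA1) CPM. Of 30 genes of glycolysis and hypoxia 3 were higher and 4 lower (10% and 13.3%, median -0.03). HK2, a hexokinase, was at 45.7 ± 4.39 (A10), 48.1 ± 2.51 (NeoT), 89.3 ± 1.36 (T1) and 306 ± 7.21 (CA1) CPM. CA12, a carbonic anhydrase, was at 145 ± 1.99 (A10), 101 ± 1.9 (NeoT), 41.4 ± 0.999 (T1) and 10.4 ± 1.01 (CA1) CPM and ADM, adrenomedullin, at 18.8 ± 2.1 (A10), 66.2 ± 2.6 (NeoT), 6.85 ± 1.53 (T1) and 2.99 ± 0.653 (CA1) CPM. SLC2A1 and VEGFA were higher, and SLC2A3 and NDRG1 lower. Of 22 genes of fatty acids, PPARG and lipid droplets 2 were higher and 1 lower (9.09% and 4.55%, median 0.18). SCD, which makes monounsaturated fatty acids, was at 1267 ± 34.9 (A10), 1135 ± 53.5 (NeoT), 2262 ± 14.3 (T1) and 12274 ± 152 (CA1) CPM, PLIN4, a lipid droplet coat protein, at 8.59 ± 1.06 (A10), 13.5 ± 3.44 (NeoT), 30.7 ± 3.73 (T1) and 69.97 ± 4.53 (CA1) CPM, and ELOVL5, a fatty acid elongase, at 159.6 ± 14.8 (A10), 228 ± 8.76 (NeoT), 111 ± 1.71 (T1) and 133 ± 0.799 (CA1) CPM. The ELOVL5 call was lost without A10 replicate 1. Of 23 NRF2 targets 1 was higher (SLC7A11, at 55.3 ± 2.47 (A10), 21.6 ± 2.3 (NeoT), 103 ± 1.54 (T1) and 93.2 ± 2.6 (CA1) CPM) and 1 lower (FTL, the ferritin light chain, at 546 ± 9.2 (A10), 5053 ± 436 (NeoT), 253 ± 3.17 (T1) and 244 ± 8.8 (CA1) CPM), 4.35% each with a median of -0.07. The higher count was 2 without T1 replicate 1.

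For cholesterol synthesis and for proliferation the average contrast and the rule for genes set apart differed. Of 23 cholesterol and SREBP genes 22 were higher in the average contrast (median 0.73), yet edgeR set 0 apart in either direction. At an unadjusted p under 0.05 the count was 1 higher and 0 lower, and DESeq2 and limma-voom each gave 1 higher and 0 lower, as did leaving out NeoT replicate 3. In CA1 21 of them were higher than in A10 (34.4% of all tested genes), but in T1 15 were lower than in A10 (25.9%). Of 30 genes of S phase and mitosis, edgeR, DESeq2 and limma-voom set 0 apart in either direction, with 0 at an unadjusted p under 0.05 as well (median -0.27). All 30 were lower than in A10 in both T1 (25.9% of all tested genes) and CA1 (36.5%). Against NeoT, 28 were higher in T1 (35.0% of all tested genes) and 20 in CA1 (33.8%), and 6 were lower in CA1. Of 15 G1 cyclins, kinases and inhibitors 1 was higher (CDK6, 90.4 ± 5.82 (A10), 63.1 ± 13.3 (NeoT), 123 ± 4.2 (T1) and 118 ± 6.02 (CA1) CPM) and 1 lower (CDK4, 138 ± 8.86 (A10), 119 ± 6.69 (NeoT), 98.8 ± 2.77 (T1) and 93.6 ± 4 (CA1) CPM), 6.67% each with a median of -0.41. The CDK6 call was lost without A10 replicate 2, A10 replicate 3, CA1 replicate 1 or CA1 replicate 3, and the CDK4 call without NeoT replicate 1 or T1 replicate 1. Leaving out NeoT replicate 3 made the lower count 2, and leaving out T1 replicate 1 with it made it 3.

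Of 19 tested HOX genes, which set positional identity, 1 was higher (HOXA7, 0.153 ± 0.00971 (A10), 2.8 ± 0.542 (NeoT), 10.8 ± 0.67 (T1) and 7.74 ± 0.516 (CA1) CPM) and 1 lower (HOXC6, 9.58 ± 0.926 (A10), 7.78 ± 2.07 (NeoT), 4.03 ± 0.77 (T1) and 2.33 ± 0.376 (CA1) CPM), 5.26% each with a median of -0.35. Of 21 cancer-testis and germline genes with a row, 0 passed the filter on low counts, so that list was not tested. Of the genes set apart by at least 2-fold, those with the most counts (CPM, not per length) on their higher side included KRT15 and KRT8 among the higher, and were FN1, MT2A and FTL among the lower. MT2A, a metallothionein that binds zinc and copper, was at 5565, 5228 and 6786 CPM in A10, 3657, 3135 and 4002 CPM in NeoT, 1447, 1976 and 1589 CPM in T1 and 350.0, 318 and 425 CPM in CA1.

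Markers of cell types other than epithelium were looked at because xenografts hold host cells. The epithelial markers EPCAM, KRT8 and KRT18 were high in T1 and CA1, as given above, whereas NeoT had EPCAM at 7.24 ± 0.8 CPM and CDH1 at 0.691 ± 0.452 CPM. Of 9 stromal fibroblast markers 6 were tested, of which 1 (DCN) was set apart lower and 0 higher (median -3.89; 0 higher at an unadjusted p under 0.05 and by DESeq2 and limma-voom, and 2 lower at an unadjusted p under 0.05, by DESeq2, and without NeoT replicate 1 or NeoT replicate 2, against 1 lower by limma-voom). Their summed level was 133.1 to 141.1 CPM in A10, 612.4 to 680.2 in NeoT, 2.562 to 2.985 in T1 and 3.626 to 4.735 in CA1, and 7 of the 9 had 0 counts in CA1. The stromal sum was thus higher in A10 and NeoT, carried by DCN and, in A10, by POSTN (62.3 CPM). Among leukocyte markers PTPRC, CD3E and TYROBP had 0 counts in all libraries, and of the 3 tested (CD14, LYZ and CD68) none was set apart (median -0.47; edgeR 0, with 1 higher at an unadjusted p under 0.05 and without NeoT replicate 3, and 0 by DESeq2 and limma-voom). Their sum was 70.32 to 73.62 CPM in A10, 204 to 219.6 in NeoT, 95.48 to 104.4 in T1 and 101.5 to 105.8 in CA1. Of 3 tested endothelial markers 1, the adhesion molecule PECAM1, was set apart higher and 0 lower (median 2.94; 1 lower, KDR, at an unadjusted p under 0.05 and 0 by DESeq2 and limma-voom). PECAM1 was at 1.76, 2.33 and 2.17 CPM in A10, 3.05, 1.6 and 1.86 CPM in NeoT, 82, 85.6 and 89.1 CPM in T1 and 23.3, 24.8 and 23.8 CPM in CA1, while the endothelial cadherin CDH5 and VWF had means of at most 0.495 CPM (CDH5 in T1) in the 4 lines. KDR, a receptor for VEGF named here after its values were seen, was not set apart, at 5.81 ± 1.36 (A10), 0.738 ± 0.262 (NeoT), 0.346 ± 0.16 (T1) and 0 (CA1) CPM. The summed endothelial level, mostly PECAM1 in T1 and CA1, was 7.137 to 10.3 CPM in A10, 2.588 to 3.489 in NeoT, 82.73 to 90.48 in T1 and 23.71 to 24.99 in CA1. Of 4 tested adipocyte markers 0 were set apart in either direction (median -0.65; also 0 at an unadjusted p under 0.05 and by DESeq2 and limma-voom). Their sum was 0.03613 to 0.4089 CPM in A10, 35.17 to 46.89 in NeoT, 24.44 to 26.27 in T1 and 4.441 to 6.389 in CA1, and ADIPOQ had 0 counts throughout. Mouse reads were not measured, since the table holds human genes.

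T1 and CA1 differed from each other in many of the genes set apart, as they did among all tested genes. Among the 954 higher genes CA1 was above T1 in 480, below in 144 and not called different in 330. Among the 651 lower genes CA1 was below T1 in 316, above in 66 and not called different in 269. Over all tested genes 30.4% were higher and 31.9% lower in CA1 than in T1. CA1 was thus further from A10 and NeoT than T1 in 480 and 316 genes. Of the lower genes, the 66 fell to 40 without CA1 replicate 2. A10 and NeoT also differed from each other in many of these genes, as they did among all tested genes. Among the higher genes NeoT was below A10 in 493 and above in 169. Among the lower genes NeoT was above A10 in 300 and below in 119. Of all tested genes, 33.7% were higher and 36.7% lower in NeoT. On both sides A10 more often than NeoT was the line closer to the passaged lines.

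Among genes with a gap of at least 2-fold and at least 10 CPM in both lines of the higher side, CA1 lay furthest above T1 in TRPV4, a calcium channel gated by swelling and heat, at 2.76, 2.17 and 2.78 CPM in A10, 0.654, 0.906 and 0.058 CPM in NeoT, 29, 30.9 and 24 CPM in T1 and 262, 270.3 and 267 CPM in CA1. CEACAM6 and CALB2, given above, followed. By the fitted fold, CA1 lay furthest below T1 in 3 genes whose own order is not determined at such low CA1 counts. ALOX15B, a lipoxygenase, was at 114, 131 and 122 CPM in A10, 218, 222 and 195 CPM in NeoT, 35.7, 39.7 and 37.6 CPM in T1 and 0 CPM in all 3 libraries of CA1. MT1E, a metallothionein, was at 620.0, 482 and 688 CPM in A10, 489, 419.6 and 598 CPM in NeoT, 122, 159 and 139.6 CPM in T1 and 0.169, 0 and 0 CPM in CA1, and ABCA6, a transporter, at 17.6, 15.9 and 18.4 CPM in A10, 9.6, 9.96 and 13.3 CPM in NeoT, 4.34, 3.2 and 3.84 CPM in T1 and 0 CPM in all 3 libraries of CA1. In these 3 genes every T1 library was below every A10 and NeoT library, and CA1 had at most 3 counts over its 3 libraries.

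Genes set apart lower were unevenly placed along the genome. On chromosome 20, 63 of 365 tested genes (17.26%) were set apart lower and 13 (3.562%) higher, beside 4.52% and 6.62% over all genes, and the medians over the chromosome were negative in all 4 pairwise comparisons, from -0.67 (CA1 against NeoT) to -0.25 (T1 against A10). Of 291 windows of 10 Mb with at least 10 tested genes, 4 had all 4 medians below -0.2, and all 4 lay on chromosome 20. Most of the lower genes there differed moderately. Examples, picked after their values were seen, are CST3, the protease inhibitor cystatin C, at 480.1 ± 28.7 (A10), 799 ± 170.1 (NeoT), 215 ± 8.38 (T1) and 207 ± 2.43 (CA1) CPM, and POFUT1, which adds fucose to Notch, at 114 ± 5.77 (A10), 206 ± 20.2 (NeoT), 75.3 ± 3.67 (T1) and 65.6 ± 2.16 (CA1) CPM. PTK6, an epithelial tyrosine kinase on the same chromosome, was set apart higher at 5.34 ± 1.01 (A10), 5.1 ± 1.3 (NeoT), 39 ± 1.77 (T1) and 59.8 ± 4.93 (CA1) CPM. Lower genes also lay together elsewhere. The window from 150000001 to 160000000 on chromosome 1 held 32 genes set apart lower and 9 higher among 174 tested. Its medians were all negative, from -0.72 (CA1 against A10) to -0.12 (CA1 against NeoT), but not all were below -0.2. Over whole chromosomes, 7.516% of tested genes were set apart lower on chromosome 1 and 7.343% on chromosome 8.

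A further 4 windows had all 4 medians above 0.2. The one at the end of the short arm of chromosome 9 (bases 1 to 10000000 of GRCh38) held 13 genes set apart higher and 0 lower among 31 tested. Its medians were 1.09 for T1 against A10, 0.84 for T1 against NeoT, 1.15 for CA1 against A10 and 0.84 for CA1 against NeoT. Besides VLDLR it held, as examples picked after their values were seen, CD274, the immune checkpoint ligand PD-L1, at 2.84 ± 0.148 (A10), 0.342 ± 0.156 (NeoT), 17.3 ± 0.624 (T1) and 30.8 ± 1.73 (CA1) CPM, ERMP1, an endoplasmic reticulum peptidase, at 62 ± 4.23 (A10), 86.5 ± 9.83 (NeoT), 323 ± 9.06 (T1) and 270.4 ± 6.96 (CA1) CPM, and KDM4C, a histone demethylase, at 17.2 ± 0.704 (A10), 27.7 ± 2.96 (NeoT), 38.5 ± 0.586 (T1) and 48.6 ± 2.58 (CA1) CPM. The window from 30000001 to 40000000 on X held 5 of 14 set apart higher with a smallest median of 0.71, and the windows on chromosomes 6 and 10 had smallest medians of 0.21 and 0.20. No DNA copy number was measured here, and its part in these levels was not tested.

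**Figure D5:**
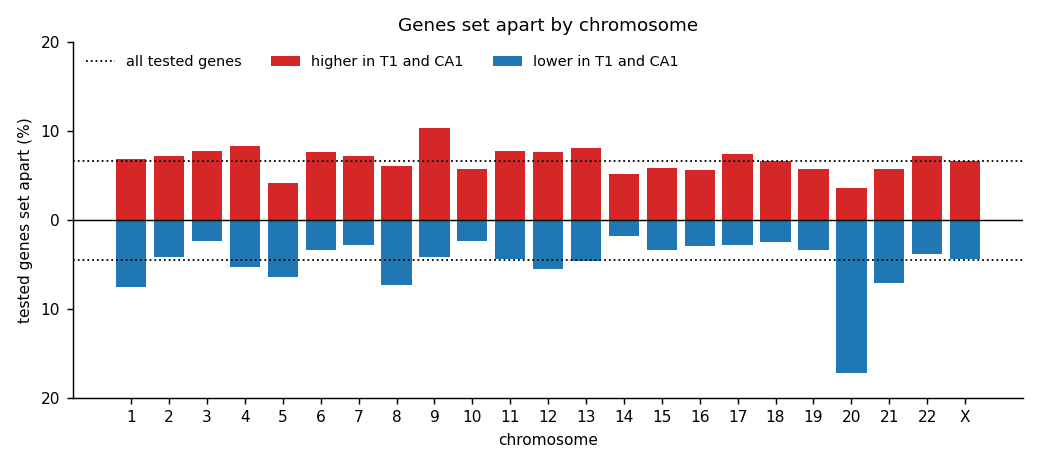
Bars give the percentage of tested genes on each chromosome that were set apart higher (up) or lower (down) in T1 and CA1, with dotted lines at 6.62% and 4.52% for all tested genes. Chromosome 20 has the longest lower bar (17.26%) and the shortest higher bar (3.562%), and chromosome 9 has the longest higher bar (10.33%).

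At the edge of the threshold the calls rest on small differences. Just inside it were FHL2 (adjusted p = 0.0496, smallest fold 1.16) and TBC1D4 (adjusted p = 0.05, smallest fold 1.22). Just outside it were NEURL2, at 1.8 ± 0.458 (A10), 2.17 ± 0.399 (NeoT), 0.593 ± 0.199 (T1) and 0.764 ± 0.0879 (CA1) CPM, and ZER1, at 38.9 ± 1.24 (A10), 51.9 ± 2.32 (NeoT), 60.5 ± 2.18 (T1) and 71.5 ± 0.616 (CA1) CPM, both with an adjusted p of 0.0501. FHL2 lost its call under 16 of the alternatives tried and TBC1D4 under 12.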

How the data were processed

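RNA of 4 lines, 3 replicates each, was treated with DNase I and made into libraries with an NEBNext Ultra kit, per the labels' protocols. The values deposited by the authors are estimated counts (expected counts) per gene, not scaled between libraries, and the table's name points to Salmon. GRCh38 and limma are listed in the submitters' processing notes, which do not say what each served for. Annotation and program versions are not given in the sources used here. The counts were rounded (10.07% of values were not whole). Positions and promoters come from RefSeq (GRCh38.p14), which matched 23172 of 29744 rows by symbol and 1782 by synonym, and 114 rows that share a gene name were kept.

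Genes were filtered with filterByExpr (14417 left), scaled by TMM and fitted with edgeR 4.0.16 (quasi-likelihood, robust, R 4.3.3), with 1 mean per line over all 12 libraries. A gene was set apart when its 4 pairwise log2 fold changes shared a sign and the largest of the 4 two-sided p-values, adjusted by Benjamini-Hochberg over all genes, was under 0.05. The method was run on simulated data in which NeoT had the means of A10, and CA1 those of T1. It therefore did not cover genes in which the 2 lines of a side differ, as many do here. Alternatives were RLE and upper-quartile scaling, 2 other filters, DESeq2 1.42.0, limma-voom (limma 3.58.1), a replicate block, each library left out, T1 replicate 1 and NeoT replicate 3 left out together, no rRNA rows, pairs of lines fitted alone, and other rules for a gene set apart.

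Genes were named by rule: 12 per direction with the widest gap (protein-coding, at least 10 CPM in both lines of the higher side, no overlap), up to 4 per list with the widest gap, HRAS, ESR1, PGR and ERBB2, 2 on each side of the threshold, 3 per direction with the highest CPM, and 3 per direction in which CA1 and T1 differed most. The comparison, lists and rules were chosen with earlier results of these data known. A few items are not reported here.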

Additional observations from a re-analysis of the deposited data

Results flagged for a closer look

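In 88 of the 108 named genes that were set apart, T1 and CA1 also differed from each other. The contrast was CA1 against T1 in the same edgeR fit, at an adjusted p under 0.05. In these genes the 2 passaged lines thus did not lie equally far from A10 and NeoT. Some genes had been named because CA1 and T1 differed most in them, which raises this count. Over all tested genes 30.4% were higher and 31.9% lower in CA1 than in T1. Over all genes set apart, CA1 was above T1 in 480 and below in 144 of the higher genes, and above in 66 and below in 316 of the lower ones. Values below are log2 fold changes of CA1 over T1. No cause of these differences was tested.

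Among the named genes set apart higher, CA1 lay above T1 by 3.25 for TRPV4, 3.01 for CEACAM6, 2.75 for CALB2, 2.46 for WNT7B, 2.44 for SCD, 2.17 for INHBA, 1.86 for WWTR1, 1.85 for PADI1 and 1.82 for ATF3. Next came 1.78 for HK2, 1.70 for KRT18, 1.66 for EPHA2, 1.60 for TCN1, 1.5 for KRT6B, 1.38 for SLC6A14, 1.37 for COL18A1, 1.28 for GABRP and 1.19 for PLIN4. Smaller differences were 1.16 for KRT8, 1.03 for HBEGF, 1.03 for TGFA, 0.83 for COL16A1, 0.80 for ESRP1, 0.73 for EPCAM, 0.69 for IFI35, 0.68 for ANO1 and 0.62 for CEACAM1. The smallest were 0.62 for IRF7, 0.58 for KRTCAP3, 0.56 for TCF7, 0.56 for FHL2, 0.49 for RAB25, 0.41 for ERBB3, 0.39 for SPRED2, 0.31 for CLDN4 and 0.29 for KRT15. The last was 0.28 for F3.

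Among the named genes set apart higher, CA1 lay below T1 by -1.84 for PECAM1, -1.79 for KLK5, -1.31 for KRT16, -1.25 for CGN, -0.95 for OVOL1, -0.73 for DSC2, -0.64 for ITGB2, -0.61 for VLDLR and -0.59 for GRHL2. The others were -0.57 for AGR2, -0.48 for HOXA7, -0.38 for PLAUR, -0.35 for TBC1D4, -0.33 for WWC1, -0.28 for ITGB6 and -0.21 for ELF3.

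Among the named genes set apart lower, CA1 lay below T1, and so further from A10 and NeoT, by -6.04 for IFITM2, -4.02 for TWIST2, -3.69 for TGFBR3, -2.33 for GNG11, -2.20 for MT2A, -1.99 for CA12, -1.73 for C1R, -1.65 for DUSP1 and -1.56 for ITGA10. The next were -1.53 for CLU, -1.28 for HEY1, -1.22 for FMNL1, -1.22 for ADM, -0.94 for FN1, -0.92 for CXCL2, -0.79 for ITGA5, -0.79 for HOXC6 and -0.51 for TIMP1. The last was -0.50 for SOD2. In 8 more of these genes CA1 had 3 or fewer counts, and the T1 means were 0.447 CPM for DCN, 0.74 CPM for WNT5A, 0.7 CPM for SLC7A2, 0.404 CPM for SLC2A3, 1.04 CPM for ZEB2, 37.6 CPM for ALOX15B, 140 CPM for MT1E and 3.79 CPM for ABCA6.

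In 8 named genes set apart lower CA1 lay above T1, and so nearer to A10 and NeoT, by 1.12 for SPRED3, 0.85 for COL6A1, 0.81 for CBS, 0.76 for IL8, 0.51 for CFB, 0.51 for ERAP1, 0.46 for COL7A1 and 0.25 for ELOVL5.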

How the results depend on the processing

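Over 22 alternative fits, 88.35% to 100% of the 1605 genes were set apart again. Of 2442 values of named genes under the alternatives, 2374 kept their direction and side of the threshold, 58 lost the call, 10 gained it and 0 reversed. The 12 genes concerned were SPRR3, ERAP1, CDK6, CDK4, SPRED3, EPHA2, WWC1, ELOVL5, FHL2, TBC1D4, NEURL2 and ZER1. Of 1408 list counts, 1361 stayed within 1.5 times, and the 47 others were counts of 4 or fewer. Asking that all 4 folds reach 2 left 432 higher and 260 lower genes, and asking only that the 6 and 6 libraries not overlap, with no test, gave 999 lower. Leaving out each library in turn, the lower genes with CA1 above T1 numbered 40 (without CA1 replicate 2) to 74 (without NeoT replicate 3). Upper-quartile scaling moved the median of the average contrast to -0.05. Same-numbered replicates did not deviate together (correlations of -0.069 to 0.088, and 5 of 12 libraries correlated best with their own number), so the replicate number was not taken as a pairing. With a replicate block 907 genes were set apart higher and 624 lower, and of the named genes SPRR3, FHL2 and TBC1D4 lost their call. Low counts limit SPRR3, ADAMTS5, SPRED3 and NEURL2, and counting error is only part of their uncertainty.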

Other observations

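Families outside the lists were looked at after values were seen, so they are described with counts and no test of the family. The counts are to be read against 6.62% set apart higher and 4.52% lower among all tested genes. Of 5 tested metallothioneins, which buffer zinc and copper, 3 were set apart lower (MT1E, MT1X and MT2A) and 0 higher. MT1X was at 57.4 ± 8.87 (A10), 986 ± 164 (NeoT), 23 ± 4.34 (T1) and 17.3 ± 3.88 (CA1) CPM. All 4 tested CEACAM genes were set apart higher, and CEACAM5 was at 0 CPM in all 3 libraries of A10, 0 CPM in all 3 libraries of NeoT, 0.925, 2.22 and 2.33 CPM in T1 and 252, 234 and 235 CPM in CA1, so its level in T1 was low while CA1 was high. Of 4 tested peptidylarginine deiminases 3 were higher (PADI1, PADI2 and PADI3), and PADI2 was at 24.3 ± 1.37 (A10), 0.14 ± 0.154 (NeoT), 133 ± 2.55 (T1) and 229 ± 6.54 (CA1) CPM. Of 4 tested TRPV channels 3 were higher (TRPV3, TRPV4 and TRPV6), although TRPV3 and TRPV6 had means of at most 4.95 CPM (TRPV3 in CA1). Of 22 keratins 8 were set apart higher and 0 lower. KRT5 and KRT14, given above, were not set apart and had lower means in T1 and CA1 than in A10.

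The S100 genes, small calcium-binding proteins, went both ways, with 2 of 13 higher and 2 lower. S100P was at 6.29 ± 0.0704 (A10), 40.03 ± 12.8 (NeoT), 150.1 ± 24.9 (T1) and 372 ± 38.2 (CA1) CPM and S100A14 at 537 ± 34.3 (A10), 6.26 ± 1.44 (NeoT), 689 ± 53.7 (T1) and 1455 ± 98.3 (CA1) CPM, both set apart higher. S100A8 was at 362 ± 47.7 (A10), 2.29 ± 1.17 (NeoT), 0.464 ± 0.201 (T1) and 0.014 ± 0.0242 (CA1) CPM and S100A9, its partner in calprotectin, at 1176 ± 66.9 (A10), 35.3 ± 11.8 (NeoT), 7.52 ± 1.81 (T1) and 11.4 ± 2.52 (CA1) CPM, both set apart lower. The edgeR test set apart 0 of 79 cytosolic ribosomal protein genes (2 at an unadjusted p under 0.05, 1 by DESeq2 and 0 by limma-voom) and 0 of 37 NADH dehydrogenase subunits (2 at an unadjusted p under 0.05 and 0 by both other tools).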
